A study of Mus musculus with 9 samples.

Results

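Shedding of membrane RANKL depends on metalloproteases, on the proteins that deliver them to the cell surface and on their inhibitor. The transcripts of 10 such genes were followed here in mouse osteoblasts: Adam8, Adam9, Adam10, Adam12, Adam15, Adam17, Mmp14, the iRhom genes Rhbdf1 and Rhbdf2, and Timp3. They were chosen as genes with a known role in shedding, and all 13 probes that carry their symbols were taken from a table of 25697 probes. Of the 10 genes, 8 had a probe above background on at least 2 arrays and were among the 9490 genes tested.

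The cells were primary calvarial osteoblasts of newborn mice, from the bones of the skull roof. All of them, controls included, carried a lentivirus that makes RUNX2, a transcription factor of bone formation, when doxycycline (dox) is added. For 48 h they received vehicle (2 arrays), dox at 500 ng/ml (2 arrays), oestradiol (E2) at 10 nM (3 arrays), or dox at 500 ng/ml with E2 at 10 nM (2 arrays), with serum stripped by charcoal to lower its steroid content. No group received dox without the RUNX2 virus, so RUNX2 and dox itself cannot be told apart. Nothing in the labels tells whether the replicates of a group came from different cultures or animals, and each p-value rests on the spread among these arrays alone, part of which may be technical.

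Slide 1 held the arrays without E2 and slide 2 those with E2, so dox was compared within a slide, while E2 and slide cannot be told apart. Between 11554 and 12206 probes per array were above background. Of 14 osteoblast markers on the array, 10 were above background on at least 2 arrays, as were 5 of 5 chondrocyte markers, Col2a1 among them. Of the osteoblast markers, Runx2, Ibsp, Dmp1 and Postn were above background on no array. The Runx2 probes therefore do not show whether the transgene was on. A dox response was nevertheless measured. Over all dox arrays within slides, Sp7 and Alpl passed as higher among the 10 osteoblast markers tested, apart from Bglap2, set aside below. As lower 0 passed, and 0.116% of all genes passed in either direction. The estimate was positive for 7 of the 10 and negative for 3, among them Col1a1 at -0.13 ± 0.04 (adjusted p = 0.707). Sp7, which codes for the osteoblast transcription factor osterix, rose by 0.68 ± 0.08 (adjusted p = 2.64e-05), while Alpl, whose product frees phosphate for mineral, rose by 0.85 ± 0.13 (adjusted p = 0.000727). Bglap2, an osteocalcin gene, was above background on the 4 dox arrays and on none of the 5 others (adjusted p = 3.78e-05). Only the dox arrays let Bglap2 through the detection filter, so its p-value is not counted as support. Sp7 and Alpl also passed, as higher, for dox plus E2 against E2. For dox against vehicle they did not pass (adjusted p = 0.0569 and 0.464). Levels are log2 values after normalization, and differences are given on the same scale as limma estimates ± their standard error, with p-values adjusted by the Benjamini-Hochberg method over all 9490 genes. Intervals are 95% intervals for 1 gene at a time. Levels of different genes are not compared, since probes differ in brightness, and a probe is set against others only to say whether it was above background.

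RANKL, the product of Tnfsf11, sits in the osteoblast membrane and drives osteoclast formation by contact with precursor cells. Cutting by a metalloprotease releases its outer part as a soluble form. ADAM10 and MMP14 have been reported to shed RANKL in mouse osteoblasts, and ADAM17, the TNF-alpha converting enzyme, cuts it in vitro. The iRhoms are rhomboid relatives without protease activity that escort ADAM17 out of the endoplasmic reticulum and hold it in its active form. TIMP3 is the tissue inhibitor that acts on ADAM17 as well as on matrix metalloproteases.

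The RefSeq table of the mouse assembly GRCm38.p6 held the promoter window of 6 of the 10 genes (Adam8, Adam10, Adam15, Adam17, Mmp14 and Timp3), each a stretch of 300 bases around the start of the gene. The core motif of RUNX factors, TGTGGT, was searched on both strands, with ACCACA as its reverse complement, because dox switches on RUNX2 in these cells. It was found once in each of 2 of the 6 windows, those of Adam15 and Mmp14, and in 16.8% of all 32851 windows in that table. An oestrogen response element (GGTCA, 3 bases of any kind, then TGACC, which reads the same on both strands) was in 0 of the 6 and in 0.0700% of all windows. The 2 windows with a RUNX core are printed 5′ to 3′ in the direction of the gene, with the core in capitals. The Mmp14 window lies at chr14:54431348-54431647 on the plus strand, and its core, on the strand opposite to the gene, begins at position -114 from the gene start. The Adam15 window lies at chr3:89349979-89350278 on the minus strand, and its core, on the strand of the gene, begins at position -72.
Mmp14: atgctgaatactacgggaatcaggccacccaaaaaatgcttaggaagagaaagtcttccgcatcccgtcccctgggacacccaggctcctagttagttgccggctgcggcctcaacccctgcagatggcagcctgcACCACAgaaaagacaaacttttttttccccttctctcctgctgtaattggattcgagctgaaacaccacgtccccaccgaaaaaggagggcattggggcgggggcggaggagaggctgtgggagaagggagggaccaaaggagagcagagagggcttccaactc
Adam15: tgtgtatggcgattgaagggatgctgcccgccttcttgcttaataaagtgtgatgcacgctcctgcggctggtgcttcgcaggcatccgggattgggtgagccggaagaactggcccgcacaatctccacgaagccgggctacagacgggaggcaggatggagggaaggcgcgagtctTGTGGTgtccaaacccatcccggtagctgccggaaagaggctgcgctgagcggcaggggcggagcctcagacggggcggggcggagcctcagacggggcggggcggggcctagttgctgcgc
A match describes the letters of the window and does not show that RUNX2 binds there. The dox effects on both genes are given below with those of the genes whose windows hold no such core.

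No member of the set passed the threshold of an adjusted p under 0.05 in any of 6 comparisons. For dox against vehicle 0 of 8 passed, where 0.0316% of all genes did, and for dox plus E2 against E2 0 of 8, where 0.0738% did. For the difference between these dox effects 0 of 8 passed, as did 0% of all genes, with 652 of 9490 genes at an unadjusted p under 0.05. For all 4 dox arrays set against the 5 without dox, within slides, 0 of 8 passed against 0.116% of all genes. For E2 against vehicle 0 of 8 passed against 1.45% of all genes, and for dox plus E2 against dox 0 of 8 against 0.232%. At an unadjusted p under 0.05 stood 1 member for dox against vehicle (6.77% of all genes), 0 for dox plus E2 against E2 (6.23%) and 1 for the difference of the dox effects (6.87%). In the other comparisons it was 0 for all dox arrays (5.85%), 0 for E2 against vehicle (15.6%) and 2 for dox plus E2 against dox (10.8%). With so few calls among all genes, 0 of 8 does not set the members apart, and the intervals carry more information than the calls. Array levels are averages over all cells, so fewer cells of a type and less RNA per cell cannot be told apart.

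Adam17 (ILMN_2594718, chromosome 12) was above background on 9 of 9 arrays. Its levels were 9.45 and 9.53 with vehicle, 9.59 and 9.42 with dox, 9.55, 9.73 and 9.56 with E2, and 9.59 and 9.46 with dox plus E2. The dox arrays lay on either side of the vehicle arrays, and all 9 arrays fell within 0.30 of each other. Dox differed from vehicle by 0.02 ± 0.11 (adjusted p = 0.985), with an interval in fold terms from 0.863 to 1.19. With E2 present the dox effect was -0.09 ± 0.10 (adjusted p = 0.931, 0.813 to 1.09-fold), and the difference of the effects was -0.11 ± 0.15 (adjusted p = 0.932). The 3 E2 arrays lay above both vehicle arrays without passing the test (0.12 ± 0.10, adjusted p = 0.588).

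Mmp14 (ILMN_1240726, chromosome 14) codes for the membrane-type collagenase that also activates the gelatinase MMP2. Its levels were 13.72 and 13.76 with vehicle, 13.53 and 13.76 with dox, 13.74, 13.76 and 13.88 with E2, and 13.74 and 13.875 with dox plus E2. Dox replicate 1 was the low array, and every other array lay at 13.72 or above. The Mmp14 dox effect without E2 was -0.10 ± 0.08 (adjusted p = 0.846, 0.837 to 1.05-fold), and with E2 it was 0.01 ± 0.07 with E2 (adjusted p = 0.991, 0.911 to 1.12-fold). Their difference was 0.11 ± 0.11 (adjusted p = 0.884). Without dox replicate 1 the effect without E2 was 0.02, and without dox replicate 2 it was -0.21. Dox plus E2 against dox gave 0.16 ± 0.08 (adjusted p = 0.445), which became 0.05 without dox replicate 1 and 0.28 without dox replicate 2.

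Adam10 (ILMN_1241149, chromosome 9) could not be measured, since its only probe was below background on 9 of 9 arrays. Detection p-values ran from 0.0714 to 0.602, and signals from 118 to 156.7. The lowest signal of a probe above background was between 139 and 179.7 per array. On the log2 scale, where that floor lay between 5.57 and 5.75, the Adam10 probe read 5.54 and 5.58 with vehicle, 5.04 and 5.11 with dox, 5.12, 5.11 and 4.77 with E2, and 5.14 and 5.26 with dox plus E2. Both vehicle arrays stood above the other 7, all of them readings below background that give no fold. When all genes were tested without a detection filter, the lowest of its adjusted p-values over the 6 comparisons was 0.149, for E2 against vehicle. A probe below background does not show that a transcript is absent.

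Adam8 (ILMN_1224005 and ILMN_2756613, chromosome 7), a protease of myeloid cells and osteoclasts, was likewise near background. Its brighter probe read from 5.08 to 5.66 and was above background on dox replicate 2 only. Its dimmer probe was above background on no array. Without a detection filter its adjusted p-values ran from 0.850 upward. Of 15 macrophage and osteoclast markers on the array, 10 were above background on none of the 9 arrays, among them Ptprc, Csf1r, Adgre1, Itgam and Tyrobp. The summed linear level of all 15 ran from 3756 to 4272 with vehicle, 3889 to 4059 with dox, 3719 to 4056 with E2 and 4209 to 4646 with dox plus E2, and Ctsk, the only one above background on every array, made up 91.7% to 93.7% of it.

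Adam9, Adam12 and Adam15 code for further membrane proteases of the family. Adam9 (ILMN_2649502, chromosome 8), meltrin gamma, read 8.82 and 8.94 with vehicle, 8.96 and 8.97 with dox, 8.86, 8.70 and 8.995 with E2, and 8.63 and 8.97 with dox plus E2. Its dox arrays lay just above its vehicle arrays, while the E2 and dox plus E2 arrays overlapped. The dox effects were 0.08 ± 0.14 and -0.05 ± 0.12 (adjusted p = 0.929 and 0.978), and their difference -0.14 ± 0.18 (adjusted p = 0.921).

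Adam12 (ILMN_1243254, chromosome 7), meltrin alpha, is known for its part in myoblast fusion and in mesenchymal cells. It read 8.47 and 8.24 with vehicle, 7.90 and 8.23 with dox, 8.04, 8.14 and 8.21 with E2, and 8.22 and 8.04 with dox plus E2. Both vehicle arrays were the highest of the 9, and dox replicate 2 was within 0.01 of vehicle replicate 2. The dox effect without E2 was -0.29 ± 0.15 (adjusted p = 0.740, 0.658 to 1.02-fold) and with E2 0.00 ± 0.14 (adjusted p = 0.999), with a difference of 0.29 ± 0.21 (adjusted p = 0.825, 0.908 to 1.64-fold). Leaving out dox replicate 1 or 2 moved the Adam12 dox effect without E2 to -0.13 or -0.45, and the difference to 0.12 or 0.45. E2 against vehicle gave -0.22 ± 0.14 (adjusted p = 0.448), which ran from -0.34 to -0.11 as arrays were left out. Dox plus E2 against dox gave 0.06 ± 0.15 for Adam12 (adjusted p = 0.920), and the arrays overlapped. Among 10 muscle markers on the array, 6 were tested, and Myl2 and Myl3 differed between slides. For E2 against vehicle Myl2 gave -2.80 ± 0.26 and Myl3 -2.22 ± 0.25 (adjusted p = 6.63e-07 and 6.26e-06). Actc1 gave -2.37 ± 0.24, with 1 of 3 E2 arrays and 0 of 2 dox plus E2 arrays above background. Only the arrays without E2 let Actc1 through the detection filter, so its p-value is not counted as support. Myl2 and Myl3 also passed, as lower, for dox plus E2 against dox. There Myl2 was above background on 0 of 2 dox plus E2 arrays and Myl3 on 1 of 2. Acta1 (-0.07), Des (-0.25) and Myog (0.39) did not pass for E2 against vehicle (adjusted p = 0.894, 0.663 and 0.471). The summed linear level of the 10 was 1442 to 1676 with vehicle and 1460 to 2185 with dox, against 337 to 533 with E2 and 239 to 279 with dox plus E2. Of the 10, Ckm, Myh7, Myod1 and Tnni1 were above background on no array. The part of these markers in the Adam12 values was not tested.

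Adam15 (ILMN_3139103, chromosome 3), metargidin, whose disintegrin domain binds integrins, read 10.72 and 10.84 with vehicle and 10.63 and 10.61 with dox. With E2 it read 10.47, 10.66 and 10.70, and with dox plus E2 10.70 and 10.66. Both dox arrays and all 3 E2 arrays lay below both vehicle arrays, and none of these differences passed. The lower value with E2 held for this probe and not for the mean of both Adam15 probes, which gave 0.06 for E2 against vehicle. The Adam15 dox effect was -0.15 ± 0.10 without E2 (adjusted p = 0.796), and in its presence 0.07 ± 0.09 (adjusted p = 0.934). Their difference was 0.22 ± 0.13 (adjusted p = 0.779, 0.971 to 1.40-fold), and E2 against vehicle gave -0.17 ± 0.09 (adjusted p = 0.362).

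Rhbdf1 (ILMN_2657828, chromosome 11) codes for iRhom1, the more broadly expressed of the ADAM17 escorts, and came closest to a difference of the dox effects. It read 11.84 and 11.80 with vehicle, 11.53 and 11.69 with dox, 11.75, 11.56 and 11.82 with E2, and 11.87 and 11.77 with dox plus E2. The dox arrays lay below the vehicle arrays on slide 1, while on slide 2 the groups overlapped. The dox effect was -0.21 ± 0.09 without E2 (unadjusted p = 0.0265, adjusted p = 0.679, 0.760 to 0.982-fold) and 0.10 ± 0.08 with E2 (adjusted p = 0.906, 0.957 to 1.21-fold). The difference, 0.32 ± 0.12, had an interval from 0.07 to 0.57, an unadjusted p of 0.0153 and an adjusted p of 0.678 in limma, and its p ranked 210 of 9490. Leaving out each array in turn gave a difference from 0.24 to 0.40, and the adjusted p was 0.389 or more under all 18 alternatives. The dox effect without E2 became -0.13 without dox replicate 1 and -0.29 without dox replicate 2. Dox plus E2 against dox gave 0.21 ± 0.09 (adjusted p = 0.376), or 0.13 and 0.29 without the same arrays.

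Rhbdf2 (ILMN_1221129, chromosome 11), which codes for iRhom2, the form that serves ADAM17 in immune cells, was dim. It was above background on 9 of 9 arrays, with signals from 150.3 to 221 and detection p-values up to 0.0276. Levels were 5.92 and 6.88 with vehicle, 6.22 and 5.98 with dox, 6.29, 6.45 and 6.08 with E2, and 6.19 and 6.40 with dox plus E2. The vehicle replicates held both the lowest and the highest value of the 9 arrays. The dox effect of -0.30 ± 0.27 without E2 (adjusted p = 0.868, 0.552 to 1.20-fold) became 0.18 without vehicle replicate 2 and -0.78 without vehicle replicate 1. With E2 it was 0.02 ± 0.25 (adjusted p = 0.996), and the difference of the effects had an interval from 0.739 to 2.10-fold, the widest of the 8 genes.

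Timp3 (ILMN_2741096, chromosome 10), the inhibitor, was the steadiest member by this brighter probe, with all 9 arrays within 0.185 of each other. It read 11.44 and 11.55 with vehicle, 11.54 and 11.54 with dox, 11.55, 11.37 and 11.44 with E2, and 11.54 and 11.53 with dox plus E2. By this probe the groups overlapped in every comparison, whereas the dimmer Timp3 probe, given below, ranged over 0.58 and separated the slides. The dox effects of the brighter probe were 0.04 ± 0.08 and 0.08 ± 0.08 (adjusted p = 0.944 and 0.917). Their difference was 0.04 ± 0.11 (adjusted p = 0.975, 0.872 to 1.21-fold).

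**Figure D1:**
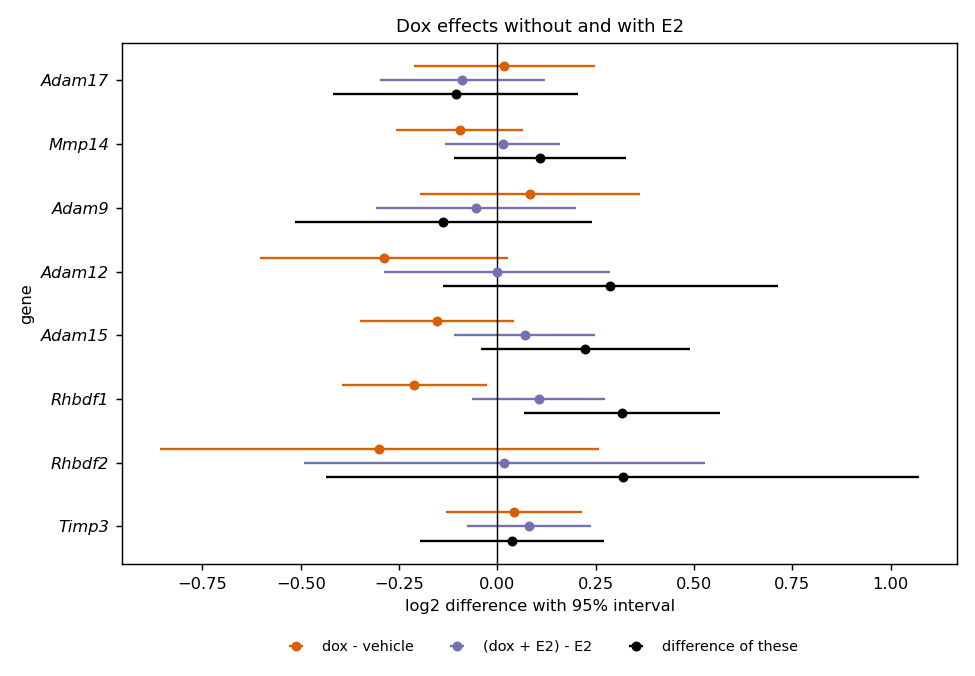
Log2 difference (horizontal axis) with its 95% interval for the 8 tested genes. Points show dox minus vehicle, dox plus E2 minus E2, and the second minus the first. The Rhbdf1 interval for dox minus vehicle ends below 0 and that for the difference starts above 0, before adjustment over genes, and Rhbdf2 has the widest intervals.

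Over the 8 genes, the dox effect without E2 was positive for 3 and negative for 5, with a median of -0.13 beside -0.01 over all genes tested. With E2 it was positive for 5 and negative for 3, with a median of 0.02 beside 0.00. The difference was positive for 6 and negative for 2, with a median of 0.17 beside 0.01. Leaving out 1 array turned the sign for 4 of 8 genes without E2 (Adam17, Rhbdf2, Mmp14 and Timp3), for 5 of 8 with E2 (Adam9, Adam12, Adam15, Rhbdf2 and Mmp14) and for 4 of 8 in the difference (Adam9, Rhbdf2, Mmp14 and Timp3). Arrays of dox and vehicle did not overlap for 4 of 8 members, near the 38.1% found for all genes. For dox plus E2 and E2 they did not overlap for 0 of 8, where 20.8% of all genes were apart, and for all dox against all other arrays for 0 of 8, where 1.5% were.

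The intervals show the range of each dox effect given the spread among these arrays, for 1 gene at a time. They do not bound the true effect, since part of that spread may be technical. The normalization also shrinks changes of dim probes such as that of Rhbdf2. Without E2 they lay within 1.5-fold in either direction for 6 of 8 genes, all but Adam12 and Rhbdf2, and the widest of the 6 reached 1.32-fold. With E2 they did so for 8 of 8, the widest reaching 1.44-fold. In the comparison of all dox arrays with the others the 8 intervals also lay within 1.5-fold, and the Adam17 interval ran from 0.872 to 1.08-fold and that of Mmp14 from 0.903 to 1.05-fold. For the difference of the dox effects 6 of 8 lay within 1.5-fold. Among all genes tested, 69.3%, 75.0%, 91.1% and 51.9% had intervals that narrow in these 4 comparisons.

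Without E2 the summed linear level of the osteoblast markers was 130523 to 136925, and with E2 it was 123498 to 128801. Sparc made up 29.5% to 32.5% of this sum, Bgn 26.3% to 28.2% and Col1a1 22.4% to 26.4%, so it mostly follows these genes. The part of this sum in the values of E2 against none was not tested. Values from E2 arrays against arrays without E2 are of slide and E2 together. E2 against vehicle was positive for 2 of 8 genes with a median of -0.08 (-0.02 over all genes), and the arrays did not overlap for 3 of 8, where 34.3% of all genes were apart. These 3 were Adam17, higher, and Adam12 and Adam15, lower, Adam15 by its brighter probe. Dox plus E2 against dox was positive for 6 of 8 with a median of 0.06 (0.00 over all genes). Its arrays did not overlap for 2 of 8, Adam15 and Rhbdf1, where 39.7% of all genes were apart. Rhbdf1 and Mmp14 were the members at an unadjusted p under 0.05 in this comparison, with limma values of 0.0282 and 0.0466. Both comparisons with dox alone share its 2 arrays.

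**Figure D2:**
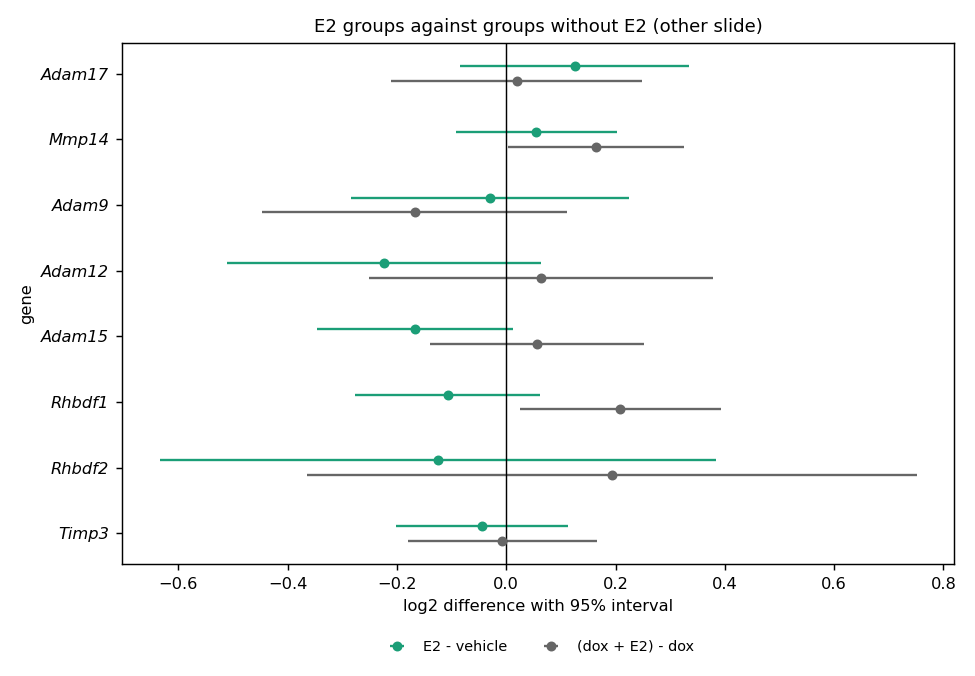
Log2 difference (horizontal axis) with its 95% interval for the 8 tested genes, E2 minus vehicle and dox plus E2 minus dox. E2 arrays lay on slide 2 and the others on slide 1. Rhbdf1 and Mmp14 have intervals above 0 in the second comparison, before adjustment over genes.

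Timp3 and Adam15 each had a second, dimmer probe above background on at least 2 arrays. The dimmer Timp3 probe (ILMN_2614759) read 6.70 and 6.80 with vehicle, 6.77 and 6.97 with dox, 7.16, 7.21 and 6.99 with E2, and 7.28 and 7.00 with dox plus E2. All 5 arrays of slide 2 lay above all 4 arrays of slide 1, whereas the brighter probe overlapped. How many of all probes separate the slides in this way was not counted. Of all genes, 34.3% were apart for E2 against vehicle and 39.7% for dox plus E2 against dox. In a limma fit of every kept probe, the dimmer one gave 0.37 ± 0.18 for E2 against vehicle (adjusted p = 0.343) and 0.27 ± 0.20 for dox plus E2 against dox (adjusted p = 0.687). The mean of both Timp3 probes gave 0.16 for E2 against vehicle, against -0.04 for the brighter probe alone. Dox effects of the dimmer probe were 0.12 ± 0.20 without and 0.02 ± 0.18 with E2 (adjusted p = 0.940 and 0.997). Where in the transcript either Timp3 probe binds is not stated in these sources.

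The dimmer Adam15 probe (ILMN_2718144) was above background on 5 of 9 arrays, at least 1 in each group, and read from 4.98 to 6.44. Its replicates were far apart, at 5.97 and 4.98 with vehicle and 5.24 and 6.44 with dox plus E2. Its dox effects of 0.00 ± 0.37 and 0.08 ± 0.34 therefore say little. For E2 against vehicle it gave 0.29 ± 0.34 (adjusted p = 0.731), opposite in sign to the brighter probe.

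**Figure D3:**
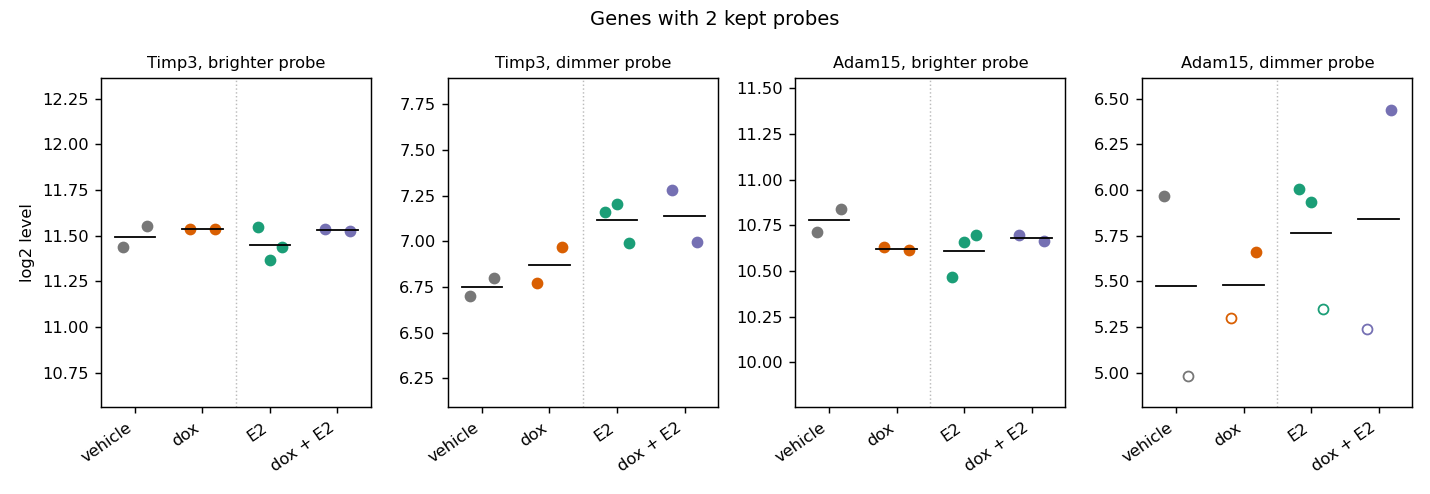
Level (log2, vertical axis, the same span of 1.8 in each panel) of both probes of Timp3 and Adam15 on the 9 arrays by treatment group, with the group mean as a bar. Open circles mark a detection p of 0.05 or more, and the dotted line separates the slides. The dimmer Timp3 probe reads higher on slide 2 than on slide 1, without passing a test, and the brighter one does not.

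The members varied both with and against each other across arrays. After the mean of each slide was taken off, the 28 pairs among the 8 genes had correlations over the 9 arrays from -0.62 (Adam17 with Mmp14) to 0.71 (Adam12 with Rhbdf1), 15 positive and 13 negative. Among all tested genes, Mmp14 was most like Igf2 (r = 0.98), Zw10 (0.95) and Tarsl2 (0.95), and Adam17 most like Trim62 (0.98), Cyp11a1 (0.94) and Ndufb3 (0.93). These points share arrays and normalization, and each is the highest out of all tested genes, so it is a description.

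Genes that work with the members gave 0 calls as well. Of 15 tested genes for maturation and trafficking of these proteases, 0 passed in each of the 6 comparisons, and the median dox effect was -0.08 without E2 and 0.01 with E2. Furin, the convertase that removes the inhibitory prodomain of ADAM17 and MMP14, had a dox effect of -0.18 ± 0.09 without E2 and -0.12 ± 0.08 with E2 (adjusted p = 0.733 and 0.887). Frmd8, which stabilises the complex of iRhom and ADAM17, had 0.11 ± 0.23 and -0.35 ± 0.21 (adjusted p = 0.9501 and 0.873). Rhbdl2, a rhomboid that does cut membrane proteins and is named after its values were seen, read 8.26 and 8.48 with vehicle, 8.45 and 8.87 with dox, 8.56, 8.61 and 8.55 with E2, and 9.25 and 8.90 with dox plus E2. Dox replicate 1 lay below vehicle replicate 2, so the arrays overlapped without E2. All dox arrays together, within slides, differed from the rest by 0.41 ± 0.10 (adjusted p = 0.230).

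Other ADAM genes were mostly dark: 4 of the 19 on the array were tested (Adam22, Adam23, Adam30 and Adam33), with 0 calls in the 6 comparisons. Adam19, another protease reported to cut RANKL, was not among these 19, so no probe carried its symbol and it could not be analysed. Of the other membrane-type metalloprotease genes Mmp16, Mmp17 and Mmp24 were tested, with 0 calls. Mmp16 had dox effects of -0.02 ± 0.09 without E2 and 0.07 ± 0.08 with E2, and the dim Mmp17 0.49 ± 0.27 and 0.31 ± 0.24. Mmp24 was above background on 2 arrays only, both of them with dox. It passed the detection filter through these alone, so its dox effects are not used. The inhibitor genes Timp1, Timp2 and Reck gave 0 calls. Timp1 had dox effects of -0.02 ± 0.07 and 0.02 ± 0.06, and Timp2, which joins MMP14 in activating MMP2, had -0.08 ± 0.09 and -0.04 ± 0.08. Mmp2 had -0.06 ± 0.07 and -0.13 ± 0.06 (adjusted p = 0.900 and 0.771). Its 3 E2 arrays and both dox plus E2 arrays read from 14.13 to 14.35 against 14.36 to 14.46 on slide 1. The differences were -0.17 for E2 against vehicle and -0.24 for dox plus E2 against dox, and neither passed the threshold. In these comparisons 34.3% and 39.7% of all genes had arrays apart.

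Among 31 tested genes of shed membrane proteins 0 passed in each of the 6 comparisons, with a median dox effect of -0.08 without E2 and 0.03 with E2. Tnfsf11 itself had a dox effect of 0.33 ± 0.14 without E2 and 0.06 ± 0.13 with E2 (adjusted p = 0.679 and 0.971). Without E2 its unadjusted limma p was 0.0269, with an interval from 0.04 to 0.62, where 6.77% of all genes were under 0.05. Both dox arrays (9.10 and 8.99) lay above both vehicle arrays (8.91 and 8.51), and 38.1% of all genes were apart. With E2 the arrays overlapped. Csf1, whose membrane form is also shed, had 0.01 ± 0.08 and -0.02 ± 0.07 (adjusted p = 0.985 and 0.988). Transcript levels do not measure how active the proteases were or how much RANKL was released, which these arrays do not record.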

How the data were processed

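Total RNA was hybridised to 9 Illumina mouse bead arrays, grouped by their titles. Per the file headers, the main deposited table gives a linear signal intensity and a detection p-value per probe and array; the deposited values show no background subtraction or scaling, and GenomeStudio 2011.1 is named in the submitters' processing notes. In the other deposited table the authors had scaled the intensities between arrays, and quantile normalization of the signals matched it within 0.512%. Probe positions and the genome build are not given in the sources used here.

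From the deposited intensities, log2 levels were made with neqc (normexp background correction from detection p-values, an offset of 16, quantile normalization; limma 3.58.1, R 4.3.3), which shrinks changes of dim probes. A probe needed a detection p under 0.05 on 2 or more arrays (12912 did), and the brightest such probe stood for its gene (9490 genes). Symbols were updated with RefSeq names (GRCm38.p6), which added 0 probes to the members. One limma fit with a mean per group, an intensity trend and two-sided moderated tests gave the comparisons, and all dox arrays were compared with those without dox in a fit with a slide term. All 10 members are named whatever their values. Of the 5 lists of related proteases, inhibitors, partners and substrates, genes past the threshold were to be named (0 passed), with Tnfsf11, Csf1, Furin, Frmd8, Adam19, Timp1, Timp2 and Mmp2 in any case, and the 3 genes most like Adam17 and Mmp14. The members and lists were chosen with earlier results of these data known. The number of arrays limits the precision. Figures were drawn with matplotlib 3.10.9.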

Additional observations from a re-analysis of the deposited data

How the results depend on the processing

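No member passed the threshold in any of the 6 comparisons under the alternatives run, and of 904 member values under alternatives 854 kept the sign of the reported value. Counts over all genes depended more on the settings. Without the intensity trend they were 0 for E2 against vehicle (138 as reported), 3 for dox plus E2 against E2 (7), 6 for dox plus E2 against dox (22) and 7 for all dox against the other arrays (11). With the replicate block 69 genes passed for E2 against vehicle, 12 for dox plus E2 against dox and 7 for all dox arrays, and no member. The labels state no pairing, so the numbers were not taken to pair samples. Same-numbered arrays had deviations that correlated from -0.17 to 0.05. These values cannot settle the question, since deviations in a group of 2 arrays mirror each other. Averaging the probes of each gene, 1 gene passed for dox against vehicle (3) and 91 for E2 against vehicle. With no detection filter 68 passed for E2 against vehicle, with detection on all 9 arrays 10 for dox plus E2 against dox, and with median scaling 34. Leaving out 1 array at a time gave 2 to 11 for dox against vehicle, 2 to 9 for dox plus E2 against E2, 0 to 4 for the difference of the dox effects, 20 to 225 for E2 against vehicle, 10 to 72 for dox plus E2 against dox and 7 to 15 for all dox arrays. A group left with 1 array is assumed to vary like the others. The cause of these shifts was not tested. Signal near background limits Adam8, Adam10, Rhbdf2 and the dimmer Adam15 probe.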
